A study of Mus musculus with 20 samples.

Results

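Hippocampal gene expression was compared between Fmr1 KO and C57 mice of the female group, using the libraries titled F-KO-Con1 to F-KO-Con5 and F-C57-Con1 to F-C57-Con5. These are 10 of the 20 libraries of the study, 5 in each group, and the other 10 carry M titles. The KO libraries have the genotype field Fmr1 knockdown and the C57 libraries the field WT, both have Sex Female and tissue hippocampus, and the titles' words KO and C57 are used below. RNA came from hippocampal tissue, taken up in TRIzol, and 1.3 µg of total RNA per sample was the input of a SMARTER mRNA-Seq kit. The allele, the ages and any treatment behind the word Con are not given in the labels. The labels also do not say whether each sample is a separate animal, so the p-values speak only of the spread among these samples, which may be technical. Values are FPKM, fragment counts divided by transcript length and library size, for 13256 protein-coding genes. Genes with at least 0.5 FPKM in at least 5 of these 10 libraries were tested, which were 12970. Differences are KO minus C57 of the mean log2(FPKM + 1), a scale that understates the change of low genes.

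Fmr1 encodes FMRP, an RNA-binding protein that travels with mRNAs into dendrites and represses their translation at synapses. Silencing of the human gene causes fragile X syndrome, a common inherited form of intellectual disability and autism. In the hippocampus FMRP is best known for its part in the long-term depression that follows group 1 metabotropic glutamate receptors, where it holds back newly made synaptic proteins. Loss of a translational repressor need not alter mRNA levels, and the values below are mRNA levels only.

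The F libraries summed to between 234750 and 244976 FPKM, which the unit sets and which is no depth; the depth is unknown. Between 21 and 28 of the 13256 genes were listed at 0 in a library, which can be a failed estimate. Within a group, each pair of libraries correlated across genes at 0.984 or more (Pearson, log2). Genes of the Y chromosome summed to at most 0.0465 FPKM in every F library and to between 27.8 and 36.8 in the M libraries. The deviation of each library from the mean of the 10 F libraries was fitted on GC content. Slopes were 0.0257 to 0.0403 log2 units per 10% of GC in the 5 KO libraries. In the 5 C57 libraries they were -0.066 to -0.00568, without overlap. With this reference the 10 slopes balance around 0, so only the difference between the groups can be read from them. Markers of neighbouring tissue stood apart in some F libraries. C57 replicate 4 and KO replicates 4 and 5 had over 500 FPKM of Ttr, a gene of the choroid plexus, and the pituitary hormone gene Prl was above 4 FPKM in KO replicates 2, 3 and 4. Counts of calls, and which named calls held, are given below with and without these libraries.

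Fmr1 itself (ENSMUSG00000000838.17, plus strand, chrX:68678541-68717963, mm10) was checked first. It stood at 10.5, 10.5, 9.85, 11.1 and 11.3 FPKM in C57 replicates 1 to 5 and at 3.66, 2.901, 3.61, 3.098 and 3.32 FPKM in KO replicates 1 to 5. All KO values were below all C57 values. The mean fell from 10.6 ± 0.558 to 3.32 ± 0.327 FPKM (SD, n = 5 each), leaving 31.2% of the C57 level. The difference was -1.43 on the log2 scale, with an exact two-sided permutation p of 0.00794, the smallest that 5 against 5 libraries allow. A level of about 3 FPKM remained in every KO library, and the deposited values do not show which part of the transcript it covers.

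The genes of the proteins that bind FMRP or share its granules were examined next. Of 21 tested genes of this kind, 1 passed, Fmr1 itself. The background to be read beside such counts is that 120 of all 12970 genes passed (0.925%) with limma at a Benjamini-Hochberg adjusted p under 0.05, of which 68 were higher (0.524%) and 52 lower in KO (0.401%). The paralogs Fxr1 (log2 0.04, adjusted p = 0.661) and Fxr2 (log2 0.04, adjusted p = 0.711) lay close to 0. Cyfip1, which links FMRP to the actin-nucleating WAVE complex, had a log2 difference of -0.14 (adjusted p = 0.129). Stau1, which encodes the double-stranded RNA-binding protein Staufen, had the largest value above 0 in this list (log2 0.39, adjusted p = 0.243). These 4 were chosen after their values were seen.

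Across the transcriptome the differences were small. The 120 genes had a median absolute log2 difference of 0.27; 12 reached 0.5 and 75 stayed under 0.3. The median over all tested genes was 0.00548, and 6755 of 12970 (52.1%) lay above 0. An unadjusted p under 0.05 was found for 2552 genes (19.7%), 1430 higher and 1122 lower. The 5 KO values did not overlap the 5 C57 values for 118 of the 120 genes and for 785 of all tested genes (6.05%). Most calls sat at the threshold, since 90 of 120 had an adjusted p over 0.04.

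Higher and lower genes differed in composition. Their median GC content was 55.0% and 44.8%, against 50.2% for all tested genes, and their median transcript length was 2566 and 4627 bases, against 3205. The slopes on GC content differed between the groups, as given above. After removal of a smooth trend of each library on GC content 27 genes passed, 13 higher and 14 lower, of which 26 were among the 120. Counts also depended on single libraries. Leaving out any of the 10 in turn left between 7 (without KO replicate 3) and 127 genes (without KO replicate 1). Without the 3 KO libraries with Prl, 8 genes passed, of which 4 were among the 120. Without the 3 libraries with Ttr, 44 passed, of which 15 were among them. Either fit has 7 libraries left. Without the Prl libraries these are KO replicates 1 and 5 and all C57 libraries. Without the Ttr libraries they are KO replicates 1, 2 and 3 and C57 replicates 1, 2, 3 and 5. The part of the smaller groups and that of the markers cannot be told apart in these counts. Of the 48 called genes given by name, 18 kept their call after removal of the GC trend: Fmr1, Fbxo33, Rpa1, Syt16, Tprkb, Arhgap5, Arf5, Rpp25l, Homer1, Esrra, Krt9, Filip1, Kcna4, Serpina3n, Calr, Dnajc3, Ebp and Neurod6. Without the Ttr libraries 10 of the 48 passed, Fmr1, Fbxo33, Rpa1, Syt16, Arhgap5, Homer1, Filip1, Paqr5, Pdia4 and mt-Atp8, and without the Prl libraries 4 did, Fmr1, Fbxo33, Rpa1 and Syt16. With the replicate number as a block, 4 of the 48 passed: Fmr1, Fbxo33, Rpa1 and Homer1.

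**Figure D1:**
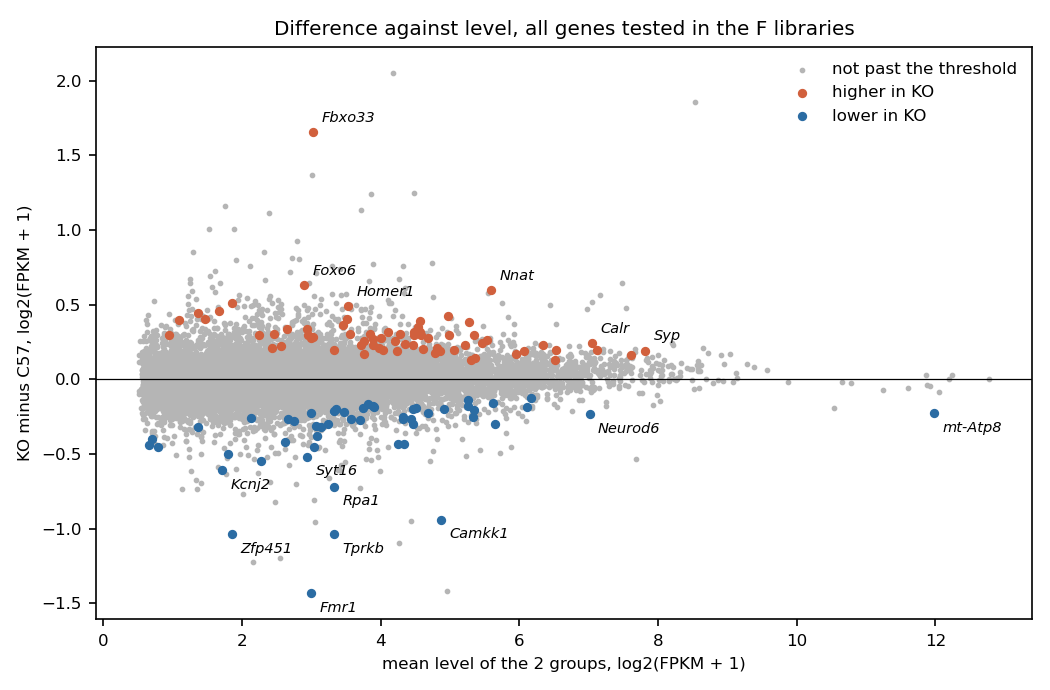
Difference between KO and C57 F libraries (vertical, log2(FPKM + 1)) against the mean level of both groups (horizontal, log2(FPKM + 1)) for the 12970 tested genes, one point each. The 68 genes past the threshold and higher in KO are orange and the 52 lower are blue; most lie within 0.5 of 0, with Fbxo33 (1.66) and Fmr1 (-1.43) farthest out.

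There were 6 genes that kept passing without each of the 10 libraries in turn: Fmr1, Rpa1, Fbxo33, Syt16, Arhgap5 and Tprkb. Of them, Fmr1, Rpa1, Fbxo33 and Syt16 also passed in all 10 other settings without a replicate block. With the block Syt16 did not pass (adjusted p = 0.0692), and neither did Arhgap5 (0.0692) or Tprkb (0.0874). Fbxo33 (chr12:59200655-59219725, minus strand), a substrate receptor of SCF ubiquitin ligases, stood at 3.64, 2.09, 3.52, 2.51 and 3.07 FPKM in C57 replicates 1 to 5 and at 10.9, 11.8, 10.7, 11.1 and 12.3 FPKM in KO replicates 1 to 5. It rose from 2.97 ± 0.663 to 11.4 ± 0.688 FPKM (SD, n = 5; log2 difference 1.66 ± 0.11 (SE), adjusted p = 3.73e-05), to 383% of the C57 mean. Every KO value was at least 10.7 FPKM and every C57 value at most 3.64. In the M libraries the same gene was at 2.65, 2.38, 2.72, 4.99 and 4.82 FPKM in C57 and at 12.6, 13.3, 1.89, 2.36 and 2.89 in KO, so 2 of 5 M KO libraries had the high level and 3 the low level.

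Rpa1 (chr11:75298166-75348324, minus strand) encodes the large subunit of replication protein A, which coats single-stranded DNA. It was at 11.2, 11.3, 11.7, 11.9 and 11.4 FPKM in C57 and at 6.49, 7.33, 6.55, 6.17 and 6.44 FPKM in KO, replicates 1 to 5 each. It fell from 11.5 ± 0.268 to 6.596 ± 0.434 FPKM (SD, n = 5; log2 difference -0.72 ± 0.04 (SE), adjusted p = 3.60e-05), with no overlap. In the M libraries C57 replicates 1 to 5 were at 10.9, 11.7, 6.45, 13.3 and 12.3 FPKM and KO replicates at 11.7, 12.3, 11.7, 11.6 and 11.9, where 1 C57 library (replicate 3) had the low level. The KO effect in M minus that in F was 0.86 (adjusted p = 0.0677, limma over 20 libraries), which did not pass.

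Syt16 (chr12:73997661-74273267, plus strand), an atypical synaptotagmin, was at 7.96, 8.27, 7.77, 7.64 and 8.64 FPKM in C57 and at 5.35, 5.12, 5.04, 5.91 and 5.21 FPKM in KO. It fell from 8.05 ± 0.404 to 5.33 ± 0.344 FPKM (SD, n = 5; log2 difference -0.52 ± 0.05 (SE), adjusted p = 0.00165), to 66.1% of the C57 mean and without overlap. In the M libraries it was also lower in KO, at 6.01, 5.71, 5.78, 5.29 and 7.46 FPKM against 8.101, 8.98, 8.74, 8.92 and 9.101 in C57 (log2 -0.48). Tprkb (chr6:85911865-85930284), a subunit of the KEOPS complex that modifies tRNAs, fell from 12.4 ± 1.91 to 5.55 ± 1.08 FPKM (SD, n = 5; log2 difference -1.04 ± 0.13 (SE), adjusted p = 0.0123). Its libraries were at 12.6, 13.2, 9.26, 14.4 and 12.7 FPKM in C57 and 6.48, 4.81, 6.95, 4.84 and 4.68 in KO, again apart. In the M libraries Tprkb was at 13.9, 12.1, 11.1, 14.4 and 6.74 FPKM in C57 and 6.14, 13.1, 5.56, 6.29 and 12.3 in KO. Both M groups thus held high and low values.

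Arhgap5 (chr12:52503972-52571975) encodes p190-B, a GTPase-activating protein that turns off the actin regulator RhoA. It was at 22.4, 20.1, 20.9, 19.8 and 20.9 FPKM in C57 and 15.02, 16.97, 14.3, 14.5 and 14.9 in KO, without overlap (log2 difference -0.43 ± 0.05 (SE), adjusted p = 0.00864). Fbxo33, Syt16, Arhgap5, Serpina3n and Alkal2 are all on chromosome 12. There 5 of 458 tested genes passed (1.09%), which is near the share over all tested genes (0.925%). The share was 2% on the X chromosome (9 of 450) and 1.56% on chromosome 18 (6 of 384). Arf5, a small GTPase of Golgi traffic, and Rpp25l, related to a subunit of RNase P, passed without 8 of the 10 single libraries and were named after their values were seen. Arf5 rose from 33.3 ± 1.03 to 39.1 ± 0.8999 FPKM (log2 0.23, adjusted p = 0.0203) and Rpp25l from 9.54 ± 0.513 to 12.001 ± 0.2396 FPKM (log2 0.30, adjusted p = 0.0203).

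**Figure D2:**
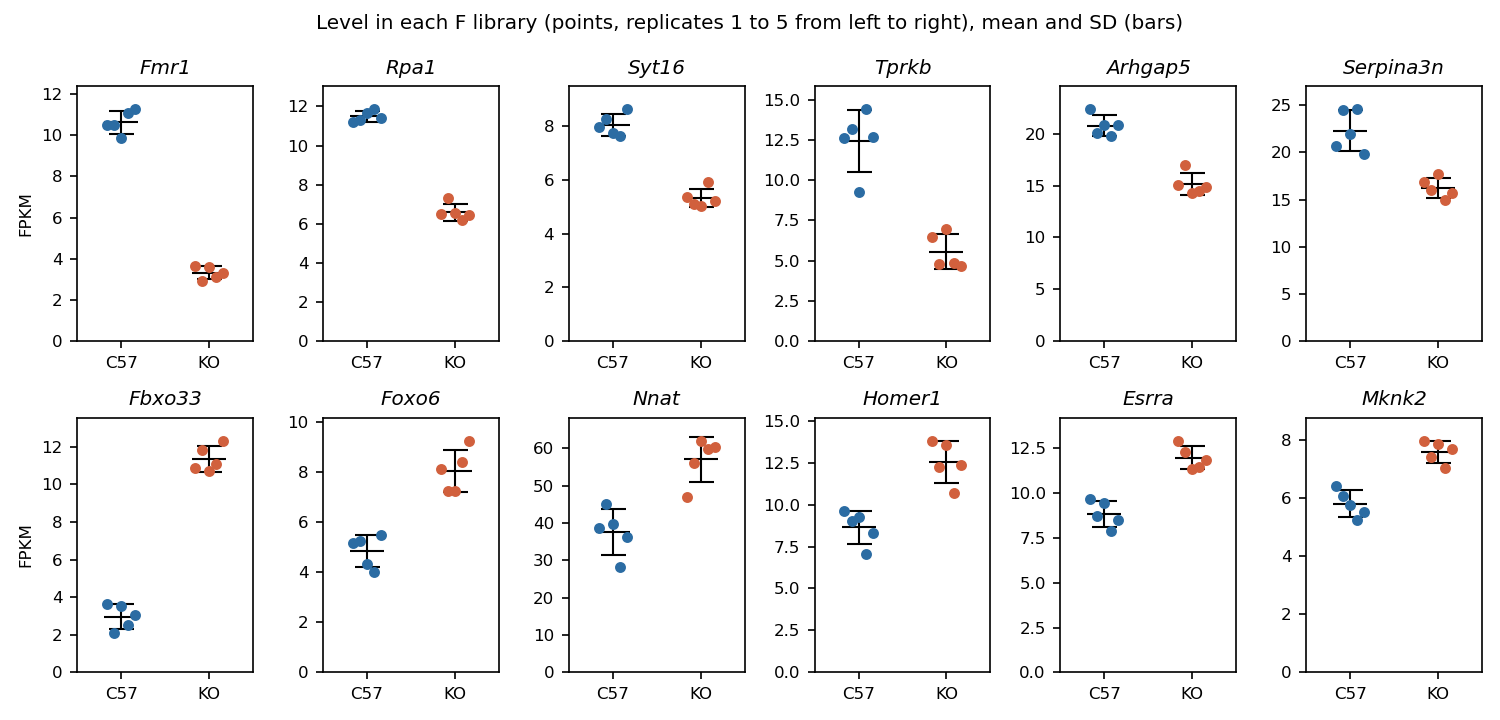
Level (FPKM) of 12 genes in each F library, C57 in blue and KO in orange, with the mean and SD of each group as bars. The upper row holds genes lower in KO, from Fmr1 to Serpina3n, and the lower row genes higher in KO, from Fbxo33 to Mknk2; in none of the 12 do the groups overlap.

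Among genes higher in KO, Foxo6 and Nnat had the largest differences after Fbxo33. Foxo6, a forkhead transcription factor of the adult hippocampus, was at 5.18, 5.24, 4.34, 4.02 and 5.47 FPKM in C57 and at 8.11, 7.26, 7.23, 8.41 and 9.26 in KO. It rose from 4.85 ± 0.63004 to 8.05 ± 0.851 FPKM (SD, n = 5; log2 difference 0.63 ± 0.09 (SE), adjusted p = 0.0205), to 166% of the C57 mean. Foxo6 was the gene of the 120 whose KO effect also differed between M and F libraries: M C57 stood at 4.61, 5.01, 6.02, 5.597 and 5.24 FPKM and M KO at 4.99, 4.84, 5.05, 5.61 and 5.25, and the M minus F difference was -0.66 (adjusted p = 0.0268). Only 6 of 13174 genes passed this test (0.0455%). After removal of the GC trend Foxo6 had a log2 difference of 0.50 in F (adjusted p = 0.0634), and it passed without 9 of the 10 single libraries. It did not pass without the Prl libraries (log2 0.73, adjusted p = 0.134) or the Ttr libraries (log2 0.50, adjusted p = 0.0611). The M minus F difference of Foxo6 did not pass with a filter of 2 FPKM (adjusted p = 0.0659) or with the replicate block (0.0768), and passed without 10 of the 20 single libraries.

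Nnat, which encodes the small endoplasmic reticulum membrane protein neuronatin and is imprinted, was at 38.7, 45.2, 39.7, 28.1 and 36.4 FPKM in C57 and 46.9, 56.1, 62.1, 59.8 and 60.3 in KO (log2 difference 0.60 ± 0.11 (SE), adjusted p = 0.0452). It lies inside Blcap on the opposite strand, and whether the counting used strand is not given in the sources used here. Homer1, a scaffold that ties metabotropic glutamate receptors to their signalling partners, was at 9.59, 9.02, 9.23, 7.08 and 8.29 FPKM in C57 and 13.8, 12.2, 13.6, 10.7 and 12.4 in KO. It rose to 145% of the C57 mean (log2 difference 0.49 ± 0.08 (SE), adjusted p = 0.0435). Neuronal activity induces the short form Homer1a, and gene-level values do not separate it from the long forms. Esrra, a nuclear receptor that drives mitochondrial genes, was at 9.68, 8.74, 9.43, 7.89 and 8.48 FPKM in C57 and 12.9, 12.3, 11.4, 11.5 and 11.8 in KO (log2 difference 0.40 ± 0.06 (SE), adjusted p = 0.0236). In all 3 genes the groups stood apart.

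The rest of the 15 largest increases were smaller. Ddit4 (REDD1, an inhibitor of mTORC1) rose from 19.4 ± 1.67 to 25.8 ± 2.505 FPKM (log2 0.39, adjusted p = 0.0452), and Mknk2, a kinase that phosphorylates the cap-binding factor eIF4E, from 5.79 ± 0.457 to 7.58 ± 0.379 FPKM (log2 0.34, adjusted p = 0.0333). Nedd8, the ubiquitin-like protein that activates cullin ligases, rose from 32.6 ± 3.02 to 42.8 ± 2.76 FPKM (log2 0.39, adjusted p = 0.0422). Rabac1, a Golgi protein that binds Rab GTPases, ran from 23.4 to 29.99 FPKM in C57 and 31.7 to 41.1 in KO (log2 0.42, adjusted p = 0.0437). Cyb561, an electron carrier of secretory vesicles, ran from 7.93 to 9.06 FPKM in C57 and 10.4 to 12.8 in KO (log2 0.36, adjusted p = 0.0283). The other increases of the largest 15 were in genes under 4 FPKM: Alkal2, a ligand of the ALK receptor (log2 0.51), the zinc finger gene Zfp579 (0.46), the adhesion receptor gene Adgra2 (0.45), the poly(A) polymerase gene Fam46a (0.40) and the membrane progestin receptor gene Paqr5 (0.39). Alkal2, Zfp579 and Paqr5 lost their call without each single library, while Adgra2, Fam46a and Rabac1 kept it without 1 of the 10.

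Among the lower genes, Camkk1, which encodes an activator of calcium/calmodulin-dependent kinases I and IV, was at 42.3, 42.3, 22.2, 42.3 and 38.8 FPKM in C57 and 21.7, 21.003, 17.02, 16.6 and 17.3 in KO (log2 difference -0.94 ± 0.17 (SE), adjusted p = 0.0435). The groups were separated by a narrow gap, because C57 replicate 3 lay near the KO values. Zfp451, a SUMO ligase gene, was at 4.49, 1.48, 4.78, 4.24 and 4.58 FPKM in C57 and 1.14, 1.23, 1.42, 1.33 and 1.34 in KO (log2 difference -1.04 ± 0.20 (SE), adjusted p = 0.0487), with C57 replicate 2 next to the KO values. In the M libraries the 2 levels did not follow the genotype. Camkk1 was at 16.6 FPKM in C57 replicate 4 and 19.9 in KO replicate 2 against 31.7 to 42.3 in the other 8, and Zfp451 was at 4.70 FPKM in C57 replicate 3 against 1.29 to 1.56 in the other 9.

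The other large decreases included 2 potassium channel genes. Kcnj2, the inward rectifier Kir2.1, was at 3.098, 2.65, 3.44, 3.55 and 2.15 FPKM in C57 and 1.35, 1.96, 1.45, 1.91 and 1.32 in KO (log2 difference -0.61 ± 0.11 (SE), adjusted p = 0.0436). Kcna4, the A-type channel Kv1.4, was at 7.22, 9.18, 8.84, 8.805 and 8.24 FPKM in C57 and 5.39, 6.08, 5.23, 6.53 and 6.24 in KO (log2 difference -0.46 ± 0.07 (SE), adjusted p = 0.03296). Krt9, a keratin gene, ran from 3.77 to 5.82 FPKM in C57 and 2.34 to 3.35 in KO (log2 -0.55, adjusted p = 0.0435), and the filamin-binding gene Filip1 fell from 3.05 ± 0.329 to 1.88 ± 0.319 FPKM (log2 -0.50, adjusted p = 0.0422). Serpina3n, a secreted protease inhibitor induced in reactive astrocytes, was at 20.7, 24.5, 21.9, 24.6 and 19.8 FPKM in C57 and 16.8, 15.97, 17.7, 14.96 and 15.7 in KO (log2 difference -0.43 ± 0.07 (SE), adjusted p = 0.0283). It belongs to a cluster of near-identical Serpina3 genes, between which reads can be split. In the M libraries it was also lower in KO (log2 -0.49), and Fmr1, Syt16 and Serpina3n are the 3 of the 120 genes that also passed there, among 6 that did. Klk8, the protease neuropsin of hippocampal neurons, fell by 0.42 (adjusted p = 0.0487), with 5.39 to 6.59 FPKM in C57 and 3.49 to 4.97 in KO. Cyld, a deubiquitinase gene, and Rreb1, a zinc finger gene, had log2 differences of -0.32 (adjusted p = 0.0487) and -0.32 (adjusted p = 0.0487).

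Genes of synaptic receptors that passed were lower in KO. Of 30 ionotropic glutamate receptor genes 2 passed, both NMDA receptor subunits, and 21 of 30 lay below 0 (median -0.05, all genes 0.00548). Grin2a was at 24.6, 24.97, 27.4, 28.5 and 28.01 FPKM in C57 and 22.8, 23.3, 22.9, 21.997 and 22.3 in KO (log2 difference -0.23 ± 0.04 (SE), adjusted p = 0.0487). Grin2b was at 30.3, 29.1, 32.3, 31.99 and 32.2 FPKM in C57 and 28.2, 27.7, 26.04, 26.6 and 26.5 in KO (log2 difference -0.20 ± 0.04 (SE), adjusted p = 0.0452). The 2 groups of values did not overlap in either gene, although the fall was to 84.9% and 86.6% of the C57 mean. Of 21 genes of GABA receptors and GABA synthesis 1 passed, the extrasynaptic subunit Gabra4, which fell from 22.8 ± 1.06 to 18.7 ± 1.31 FPKM (log2 -0.27, adjusted p = 0.0437; list median -0.01). Gabra4 overlaps Gabrb1 on the opposite strand. After removal of the GC trend none of these 3 passed, with adjusted p of 0.0823 for Grin2a, 0.0821 for Grin2b and 0.0731 for Gabra4. They passed without 1, 2 and 2 of the 10 single libraries, in that order.

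Of 62 potassium channel genes 3 passed, all lower: Kcna4, Kcnj2 and Kcnq3, a subunit of the M-current, which was at 20.998, 18.6, 22.4, 21.4 and 20.5 FPKM in C57 and 17.9, 17.8, 17.2, 16.8 and 15.6 in KO (log2 difference -0.27 ± 0.05 (SE), adjusted p = 0.0487). The list median was -0.02, and 37 of its genes lay below 0. Of calcium, sodium and HCN channel genes 0 of 35 passed with limma, with 4 higher and 8 lower at an unadjusted p under 0.05 (median -0.05). The smallest p there belonged to Cacna1e, the R-type calcium channel (log2 -0.18, adjusted p = 0.0594), and Trpc6 (log2 -0.27, adjusted p = 0.0602). Of scaffold and adhesion genes of the postsynapse 0 of 34 passed with limma, with 3 higher and 6 lower at an unadjusted p under 0.05 (median -0.03), with Nrxn3 (log2 -0.18, adjusted p = 0.0537) and Lrrtm2 (log2 -0.15, adjusted p = 0.0593) first. Of spine actin regulators 0 of 62 passed with limma, with 6 higher and 11 lower at an unadjusted p under 0.05 (median 0.00427). There the WAVE subunit Nckap1 had log2 -0.18, adjusted p = 0.05001, and the myosin gene Myo6 was at 7.14, 12.6, 12.4, 13.6 and 12.97 FPKM in C57 and 7.59, 7.23, 6.36, 7.299 and 7.61 in KO, with C57 replicate 1 among the KO values (adjusted p = 0.0602).

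On the presynaptic side 2 of 54 vesicle and synaptotagmin genes passed, in opposite directions (median 0.03). Syp, which encodes the abundant vesicle protein synaptophysin, rose from 209.6, 220.0, 208, 199.7 and 211 FPKM in C57 replicates 1 to 5 to 232, 241, 245, 239.7 and 241 in KO (log2 difference 0.19 ± 0.03 (SE), adjusted p = 0.0267), and Syt16 fell as given above. In the pathway from mGluR5 to the translation machinery 2 of 46 passed, Homer1 and Mknk2, both higher (median 0.02). The receptor gene Grm5 (log2 -0.03, adjusted p = 0.633), Mtor (log2 -0.03, adjusted p = 0.759) and Eif4e (log2 -0.03, adjusted p = 0.738), named after their values were seen, did not pass. Of 48 immediate early and activity-induced genes 4 passed, Fbxo33 and Homer1 higher and Ptgs2 and Bdnf lower (median 0.06). Ptgs2, the inducible cyclooxygenase, was at 7.499, 8.13, 8.76, 9.07 and 9.53 FPKM in C57 and 6.62, 6.37, 6.47, 5.49 and 6.87 in KO (log2 difference -0.38 ± 0.07 (SE), adjusted p = 0.0435). Bdnf, the neurotrophin of activity-dependent plasticity, was at 10.8, 12.4, 12.4, 12.7 and 11.9 FPKM in C57 and 10.01, 8.97, 9.72, 9.99 and 10.5 in KO (log2 difference -0.26 ± 0.05 (SE), adjusted p = 0.0487). Of 63 high-confidence autism risk genes 2 passed, Grin2b and the X-linked RNA helicase gene Ddx3x, which fell from 72.9 ± 3.55 to 63.8 ± 1.55 FPKM (log2 -0.19, adjusted p = 0.0452), and 41 lay below 0 (median -0.04).

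**Figure D3:**
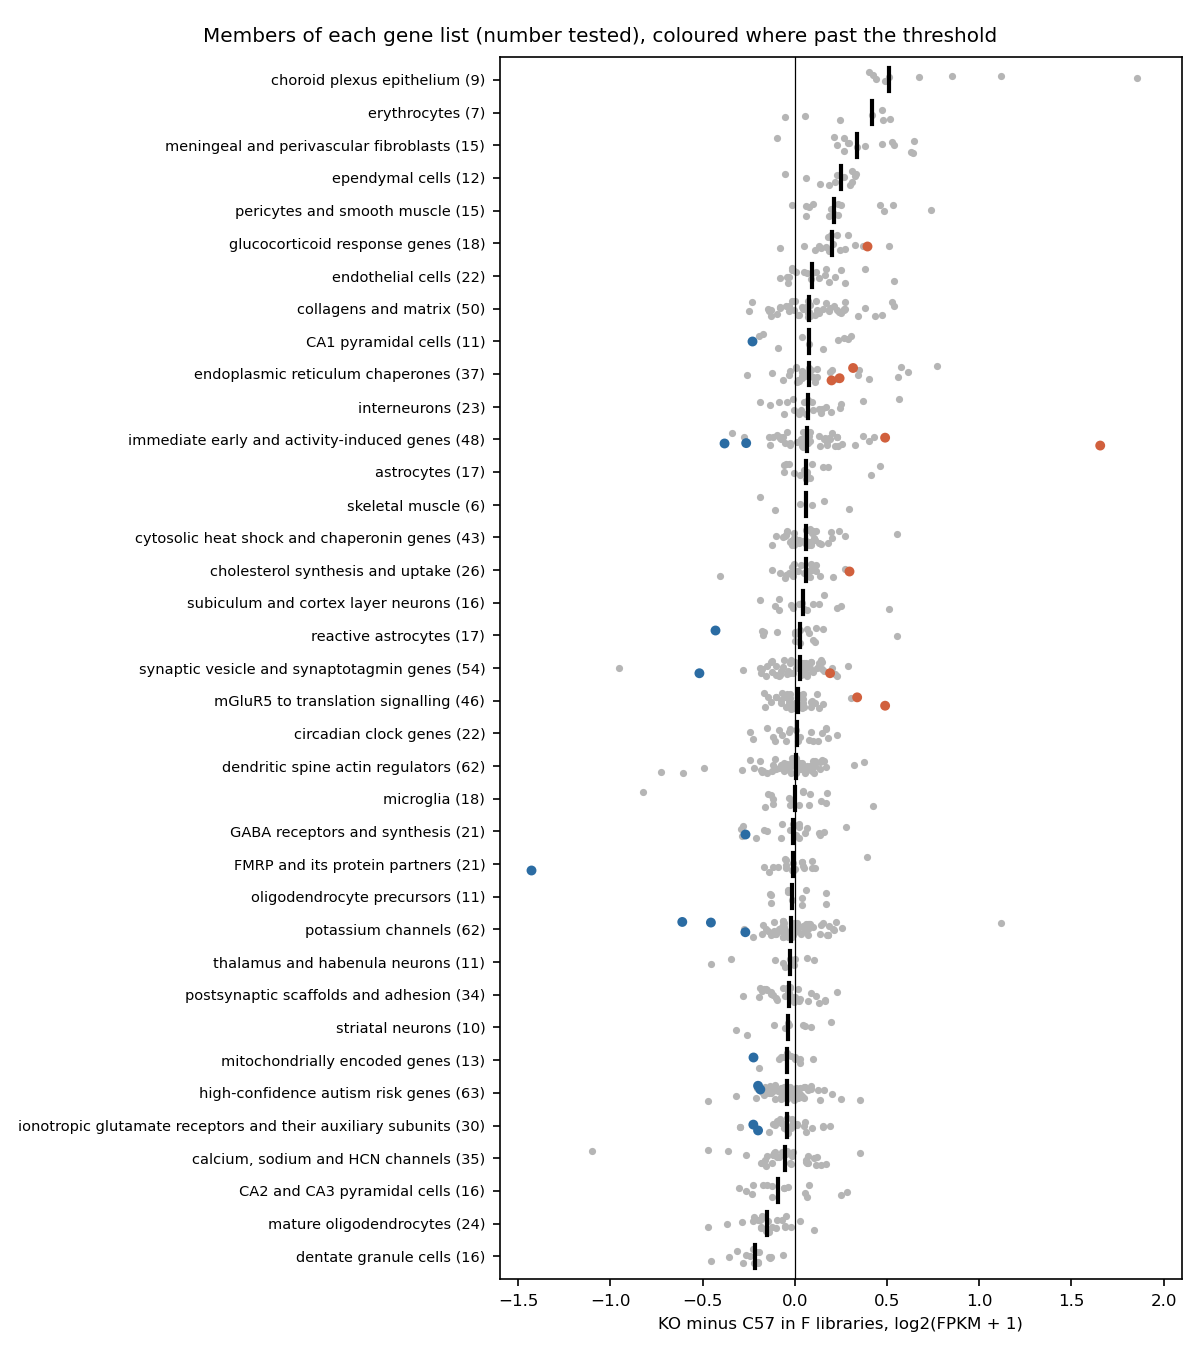
Difference between KO and C57 F libraries (log2(FPKM + 1)) for each tested member of the gene lists with at least 5 tested members, one row per list. Points are genes, orange or blue where past the threshold (higher or lower in KO), and the black bar is the list median; medians run from -0.21 for dentate granule cells to 0.51 for choroid plexus.

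Endoplasmic reticulum chaperones, which fold secreted and membrane proteins and are induced by the unfolded protein response, lay mostly above 0. Of 37 tested genes 32 were above 0 (median 0.08) and 3 passed, all higher: Calr, Dnajc3 and Pdia4. Without overlap of the groups there were 6 genes above (3.22% of all tested genes) and 1 below (2.84%). The summed level of the list ran from 875 to 926 FPKM in C57 and 963 to 1043 in KO, with every KO library above every C57 library. Calr, the calcium-binding chaperone calreticulin, was at 116, 127, 120.3, 117 and 123 FPKM in C57 and 140.5, 146, 147, 134 and 148 in KO (log2 difference 0.24 ± 0.04 (SE), adjusted p = 0.0267). Dnajc3, a co-chaperone that also inhibits the eIF2α kinases, was at 14.5, 14.6, 14.8, 14.1 and 13.4 FPKM in C57 and 16.6, 16.5, 16.6, 15.9 and 17.1 in KO (log2 difference 0.20 ± 0.03 (SE), adjusted p = 0.0435). Pdia4, a disulfide isomerase, was at 20.7, 20.6, 20.2, 21.2 and 18.3 FPKM in C57 and 27.2, 25.9, 25.7, 21.9 and 26.3 in KO (log2 difference 0.32 ± 0.06 (SE), adjusted p = 0.0436), with KO replicate 4 close to C57.

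Genes of this family are known for the ER stress response element, ERSE, bound by NF-Y and ATF6. The 250 bases before the start of each gene (RefSeq, GRCm38.p6) were searched for its letters, CCAAT and CCACG with 9 bases of any kind between them, on both strands. They occurred in 37 of 32851 windows (0.113%), in 14 of the 10038 tested genes with a window and in 8 of the 29 chaperone genes with one. The 4 windows below show 2 of the called genes with the element, the called gene without it, and Hspa5, the gene in which it is best known; capitals mark the match, which on the minus strand reads as its reverse complement.
Calr: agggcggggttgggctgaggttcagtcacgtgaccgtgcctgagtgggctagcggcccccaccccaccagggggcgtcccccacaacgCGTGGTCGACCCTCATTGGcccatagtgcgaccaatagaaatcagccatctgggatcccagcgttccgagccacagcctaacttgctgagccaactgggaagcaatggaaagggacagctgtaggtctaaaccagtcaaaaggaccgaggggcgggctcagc
Dnajc3: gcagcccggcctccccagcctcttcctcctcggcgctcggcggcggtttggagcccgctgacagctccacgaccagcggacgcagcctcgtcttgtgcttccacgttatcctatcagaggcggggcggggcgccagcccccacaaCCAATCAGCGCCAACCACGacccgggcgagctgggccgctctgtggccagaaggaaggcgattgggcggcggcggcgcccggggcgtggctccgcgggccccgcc
Pdia4: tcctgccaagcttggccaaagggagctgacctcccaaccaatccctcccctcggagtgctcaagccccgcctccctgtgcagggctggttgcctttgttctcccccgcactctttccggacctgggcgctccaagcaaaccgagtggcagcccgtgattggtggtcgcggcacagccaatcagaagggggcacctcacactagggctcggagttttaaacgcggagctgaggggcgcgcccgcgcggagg
Hspa5: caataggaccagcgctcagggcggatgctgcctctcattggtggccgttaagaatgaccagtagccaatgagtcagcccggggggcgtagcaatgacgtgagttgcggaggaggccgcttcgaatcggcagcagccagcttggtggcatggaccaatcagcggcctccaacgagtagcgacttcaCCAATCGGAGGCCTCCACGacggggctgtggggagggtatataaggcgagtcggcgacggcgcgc
These lie at chr8:84846932-84847181 (minus strand) for Calr, chr14:118937682-118937931 (plus) for Dnajc3, chr6:47813513-47813762 (minus) for Pdia4 and chr2:34771840-34772089 (plus) for Hspa5, each written in the direction of its gene. The match began 162 bases before the start in Calr, 105 in Dnajc3 and 65 in Hspa5.

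Chaperone genes with and without the letters were set side by side. The 8 chaperone genes with the element (Calr, Canx, Creld2, Dnajc3, Hsp90b1, Hspa5, Pdia6 and Syvn1) had a median of 0.20 with 7 above 0, and the 21 with a window but no match had a median of 0.08 with 18 above 0. Over all 14 tested genes with the element the median was 0.03. Hspa5 (BiP), named after its values were seen, was at 51.96, 34.5, 21.7, 43.5 and 30.5 FPKM in C57 and 28.97, 67.6, 67.5, 50.5 and 60.2 in KO, which overlap (log2 0.58, adjusted p = 0.259). Hsp90b1 was at log2 0.00, adjusted p = 0.967. Xbp1, the transcription factor of the same response, was at 12.5, 19.9, 19.2, 8.37 and 17.9 FPKM in C57 and 24.1, 25.1, 25.3, 20.6 and 21.4 in KO (log2 0.61, adjusted p = 0.131). Sel1l, of the degradation complex, was at 9.76, 8.95, 9.89, 10.1 and 8.73 FPKM in C57 and 10.8, 22.99, 23.2, 23.1 and 10.2 in KO (log2 0.77, adjusted p = 0.105), and in M libraries at 9.14, 22.8, 10.8, 23.1 and 8.33 FPKM in C57 and 22.01, 9.14, 9.13, 23.4 and 9.82 in KO. Its 3 high F values are those of the Prl libraries, and without these the log2 difference was 0.13 (adjusted p = 0.532). Serpinh1, a collagen chaperone, had log2 0.56, adjusted p = 0.05001. None of Hspa5, Hsp90b1, Xbp1, Sel1l and Serpinh1 passed. The list median stayed between 0.07 and 0.12 over the alternatives tried.

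Glucocorticoid response genes, which corticosterone induces through the glucocorticoid receptor, lay mostly above 0, with a single call. Of 18 tested genes 17 were above 0 (median 0.20), 11 had an unadjusted p under 0.05 and Ddit4 passed. Ddit4 was at 18.8, 21.5, 20.8, 18.7 and 17.4 FPKM in C57 and 25.2, 28.3, 27.7, 21.9 and 25.8 in KO, apart. Sgk1, a kinase gene that is a classical target, was at 13.9, 12.9, 15.1, 13.1 and 12.3 FPKM in C57 and 22.04, 22.9, 25.3, 14.2 and 15.7 in KO, highest in KO replicates 1 to 3, and did not pass (log2 0.51, adjusted p = 0.0895; chosen after its values were seen). Per1 was at 7.36, 6.99, 7.98, 7.12 and 6.76 FPKM in C57 and 9.91, 9.41, 8.801, 8.01 and 7.296 in KO (log2 0.23, adjusted p = 0.136). The receptor gene Nr3c1 lay below 0 (log2 -0.08, adjusted p = 0.363). The list median kept between 0.17 and 0.25 over the alternatives, and the summed level ran from 453 to 532 FPKM in C57 and 517 to 622 in KO, with overlap. The libraries with high pituitary markers, KO replicates 2 to 4, were at 22.9, 25.3 and 14.2 FPKM of Sgk1. KO replicate 1 had 22.04 FPKM of Sgk1 and 0 of Prl, and KO replicate 5 had 15.7 of Sgk1 and 0.191 of Prl. Without the Prl libraries, KO replicates 2 to 4, Sgk1 had log2 0.44 (adjusted p = 0.353, limma), and the list median was 0.18. Without the Ttr libraries Sgk1 passed (log2 0.75, adjusted p = 0.00688), and the list median was 0.25. The part of the pituitary markers themselves was not tested.

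**Figure D4:**
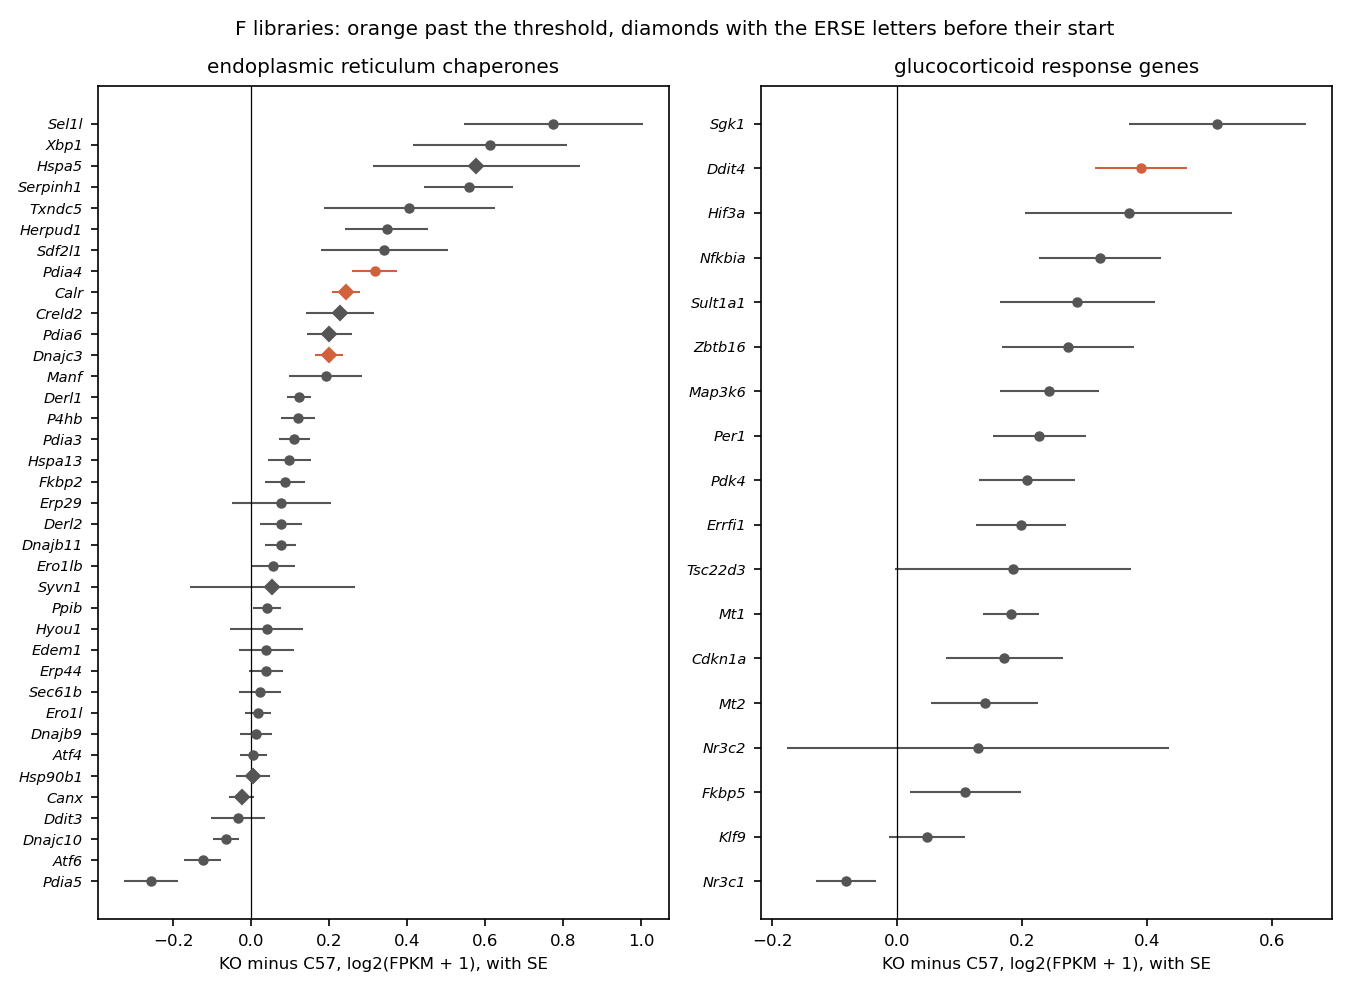
Difference between KO and C57 F libraries (log2(FPKM + 1), points) with its SE (lines) for 37 endoplasmic reticulum chaperones and 18 glucocorticoid response genes. Orange marks the 4 genes past the threshold (Pdia4, Calr, Dnajc3 and Ddit4), diamonds the 8 chaperones with the ERSE letters in the 250 bases before their start, and circles all others, also those without a window.

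Other pathways held few calls. Of cytosolic heat shock and chaperonin genes 0 of 43 passed with limma, with 8 higher and 2 lower at an unadjusted p under 0.05 (median 0.06). Hspb1 was at 3.82, 3.86, 3.497, 2.8997 and 2.34 FPKM in C57 and 4.79, 6.59, 5.37, 4.93 and 4.67 in KO, without overlap, and lay at the threshold (adjusted p = 0.05001); Dnajb1 had log2 0.27, adjusted p = 0.0602. Of 26 genes of cholesterol synthesis and uptake 1 passed (median 0.06), the sterol isomerase gene Ebp, at 6.12, 6.2003, 5.71, 5.46 and 6.23 FPKM in C57 and 7.404, 8.04, 7.09, 7.54 and 7.49 in KO (log2 difference 0.29 ± 0.05 (SE), adjusted p = 0.03296). Of 13 mitochondrially encoded genes 1 passed (median -0.04), mt-Atp8, a subunit of ATP synthase, at 4129, 4246, 4542, 4388 and 4438 FPKM in C57 and 3532, 3585, 3599, 3697 and 4172 in KO (log2 -0.23, adjusted p = 0.0487). It overlaps mt-Atp6, so its reads cannot be assigned with certainty. Together these genes took a share of 19.1% to 19.8% of all FPKM in C57 libraries and 17.7% to 19.4% in KO libraries. Of circadian clock genes 0 of 22 passed with limma, with 5 higher and 3 lower at an unadjusted p under 0.05 (median 0.01), with Ciart (log2 -0.24, adjusted p = 0.111) and Per1 first. Of collagen and matrix genes 0 of 50 passed with limma, with 11 higher and 3 lower at an unadjusted p under 0.05 (median 0.08), with Col1a1 at 0.767, 1.15, 1.19, 1.17 and 0.978 FPKM in C57 and 1.45, 2.24, 1.72, 2.72 and 1.85 in KO (adjusted p = 0.05001) and Timp3 (log2 0.27, adjusted p = 0.0632).

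Markers of the hippocampal cell types were present in every F library, and a lower level in bulk tissue can mean fewer cells or less RNA per cell, which cannot be told apart here. All 16 markers of dentate granule cells, the principal neurons of the dentate gyrus, lay below 0 (median -0.21); 0 of 16 passed with limma, with 0 higher and 10 lower at an unadjusted p under 0.05. The summed level was 139, 139.6, 160.1, 166 and 134 FPKM in C57 and 143, 132, 105, 117 and 122 in KO, overlapping through KO replicate 1. Tdo2 was at 2.004, 2.19, 2.35, 2.74 and 2.203 FPKM in C57 and 1.597, 1.88, 1.35, 1.71 and 1.73 in KO (log2 -0.31, adjusted p = 0.0594), and the master regulator Prox1 had log2 -0.22, adjusted p = 0.229. Of 11 CA1 pyramidal markers 1 passed, Neurod6, a transcription factor gene of pyramidal neurons, at 133, 134, 138, 151 and 138 FPKM in C57 and 117, 121, 115, 115 and 119 in KO (log2 difference -0.23 ± 0.03 (SE), adjusted p = 0.0267), while the list median was 0.08. Of CA2 and CA3 markers 0 of 16 passed with limma, with 1 higher and 4 lower at an unadjusted p under 0.05 (median -0.09), with Cpne9 (log2 -0.27, adjusted p = 0.0879) and Crym (log2 0.25, adjusted p = 0.0951) first.

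Of interneuron markers 0 of 23 passed with limma, with 7 higher and 1 lower at an unadjusted p under 0.05 (median 0.07). Their summed level did not overlap, at 637 to 742 FPKM in C57 and 747 to 799.5 in KO, and held the neuropeptide gene Sst as its most abundant member. Of the 23 genes 2 had all KO values above all C57 values (3.22% of all tested genes) and 0 below (2.84%). How often the sum of a list stands apart was not tested. Sst was at 293, 278, 262, 239.7 and 270.3 FPKM in C57 and 308, 297, 336, 310.2 and 340.0 in KO (log2 0.25, adjusted p = 0.0556), and the related peptide gene Cort at 8.06, 8.66, 9.07, 5.01 and 8.02 FPKM in C57 and 10.01, 11.4, 12.3, 13.8 and 11.6 in KO (log2 0.57, adjusted p = 0.0602). Neither passed. Of mature oligodendrocyte markers 22 of 24 lay below 0 (median -0.15), 0 of 24 passed with limma, with 0 higher and 3 lower at an unadjusted p under 0.05, and the summed level ran from 735 to 1244 FPKM in C57 and 809 to 987 in KO. The oligodendrocyte gene Opalin was at 17.4, 15.9, 15.8, 23.2 and 12.5 FPKM in C57 and 10.4, 12.2, 12.1, 12.04 and 11.9 in KO (log2 -0.47, adjusted p = 0.0804), with C57 replicate 4 highest, and Aspa had log2 -0.37, adjusted p = 0.188. Of oligodendrocyte precursor markers 0 of 11 passed with limma, with 2 higher and 2 lower at an unadjusted p under 0.05 (median -0.02; Ptprz1 log2 -0.13, adjusted p = 0.0717; Pdgfra log2 -0.13, adjusted p = 0.141).

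Of astrocyte markers 0 of 17 passed with limma, with 3 higher and 0 lower at an unadjusted p under 0.05 (median 0.06). Gjb6, a connexin of astrocytes, was at 14.1, 14.7, 16.1, 12.7 and 14.5 FPKM in C57 and 19.7, 23.4, 24.5, 19.6 and 14.96 in KO (log2 0.46, adjusted p = 0.0675). Of 17 reactive astrocyte genes 1 passed, Serpina3n, which was lower (median 0.03). Of microglial markers 0 of 18 passed with limma, with 3 higher and 3 lower at an unadjusted p under 0.05 (median 0.00225; Laptm5 log2 0.14, adjusted p = 0.173). Of endothelial markers 0 of 22 passed with limma, with 6 higher and 0 lower at an unadjusted p under 0.05 (median 0.09), with the lipid transporter gene Mfsd2a at 7.15, 6.58, 6.57, 5.33 and 5.27 FPKM in C57 and 9.22, 10.9, 11.7, 8.04 and 7.5004 in KO (log2 0.54, adjusted p = 0.0556) and Esam at log2 0.19, adjusted p = 0.0861.

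Markers of tissue that borders the hippocampus lay mostly above 0 and varied between libraries. Of choroid plexus markers 0 of 9 passed with limma, with 0 higher and 0 lower at an unadjusted p under 0.05, all 9 above 0 (median 0.51). Ttr was at 8.37, 62.9, 11.2, 878 and 35.5 FPKM in C57 and 37.4, 47.1, 48.5, 1097 and 1461 in KO (log2 1.86, adjusted p = 0.496), high in 3 libraries of both groups; Lbp (log2 0.43, adjusted p = 0.438) and Msx1 (log2 0.40, adjusted p = 0.259) had the smallest p. Of 9 listed pituitary hormone genes 3 were in the tables and 1 was tested, Pomc, at 0.388, 0.415, 0.128, 0.5695 and 0.596 FPKM in C57 and 0.508, 1.696, 17.2, 1.51 and 0.675 in KO (log2 1.16, adjusted p = 0.288). Prl was at 0, 0, 0, 0 and 1.68 FPKM in C57 and 0, 4.63, 42.2, 22.1 and 0.191 in KO, and Gh at 0, 0, 0, 0 and 2.24 in C57 and 0, 6.12, 69.9, 20.3 and 0 in KO, both below the level for testing. Of hypothalamic neuropeptide genes 0 of 4 passed with limma, with 1 higher and 0 lower at an unadjusted p under 0.05 (median 0.36; Cartpt log2 0.36, adjusted p = 0.124; Crh log2 0.24, adjusted p = 0.264), and their sum ran from 2.94 to 7.56 FPKM in C57 and 4.33 to 24.4 in KO.

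Of meningeal and perivascular fibroblast markers 0 of 15 passed with limma, with 4 higher and 0 lower at an unadjusted p under 0.05, 14 above 0 (median 0.34), with sums of 115 to 264 FPKM in C57 and 166 to 390.0 in KO; Foxc1 had log2 0.29, adjusted p = 0.168. Of pericyte and smooth muscle markers 0 of 15 passed with limma, with 8 higher and 0 lower at an unadjusted p under 0.05, 14 above 0 (median 0.21), with sums of 83.9 to 97.6 FPKM in C57 and 87.1 to 147 in KO. Rgs5 (log2 0.18, adjusted p = 0.0986) and Myh11 (log2 0.46, adjusted p = 0.179) had the smallest p. Of erythrocyte genes 0 of 7 passed with limma, with 4 higher and 0 lower at an unadjusted p under 0.05 (median 0.42), with Hba-a1 at 109 ± 30.999 FPKM in C57 and 154 ± 26.05 in KO and Hbb-bs at 155 ± 37.5 FPKM in C57 and 214 ± 38.6 in KO (SD, n = 5); each has a near-identical copy. Of ependymal genes 0 of 12 passed with limma, with 1 higher and 0 lower at an unadjusted p under 0.05 (median 0.25; Rarres2 log2 0.23, adjusted p = 0.203; Rsph1 log2 0.27, adjusted p = 0.283). Of neurons outside the hippocampus, those of subiculum and cortex gave 0 of 16 passed with limma, with 2 higher and 0 lower at an unadjusted p under 0.05 (median 0.04; Ctgf log2 0.51, adjusted p = 0.142; Fezf2 log2 0.16, adjusted p = 0.228), thalamus and habenula 0 of 11 passed with limma, with 0 higher and 1 lower at an unadjusted p under 0.05 (median -0.03; Prkcd log2 -0.46, adjusted p = 0.101; Zic1 log2 -0.35, adjusted p = 0.492) and striatum 0 of 10 passed with limma, with 1 higher and 2 lower at an unadjusted p under 0.05 (median -0.03; Drd1 log2 -0.32, adjusted p = 0.0518; Penk log2 -0.26, adjusted p = 0.137). Skeletal muscle genes gave 0 of 6 passed with limma, with 2 higher and 0 lower at an unadjusted p under 0.05 (median 0.06; Tcap log2 0.29, adjusted p = 0.136; Acta1 log2 0.16, adjusted p = 0.242). Without the Ttr libraries the medians were 0.20 for choroid plexus, -0.03 for mature oligodendrocytes and 0.28 for fibroblasts. They were 0.09 for pericytes and smooth muscle and -0.16 for dentate granule cells. Without the Prl libraries the same medians were 0.86, -0.23, 0.20, 0.10 and -0.15, in that order. The calls that held without these libraries are listed above, and the part of the markers in the others was not tested.

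**Figure D5:**
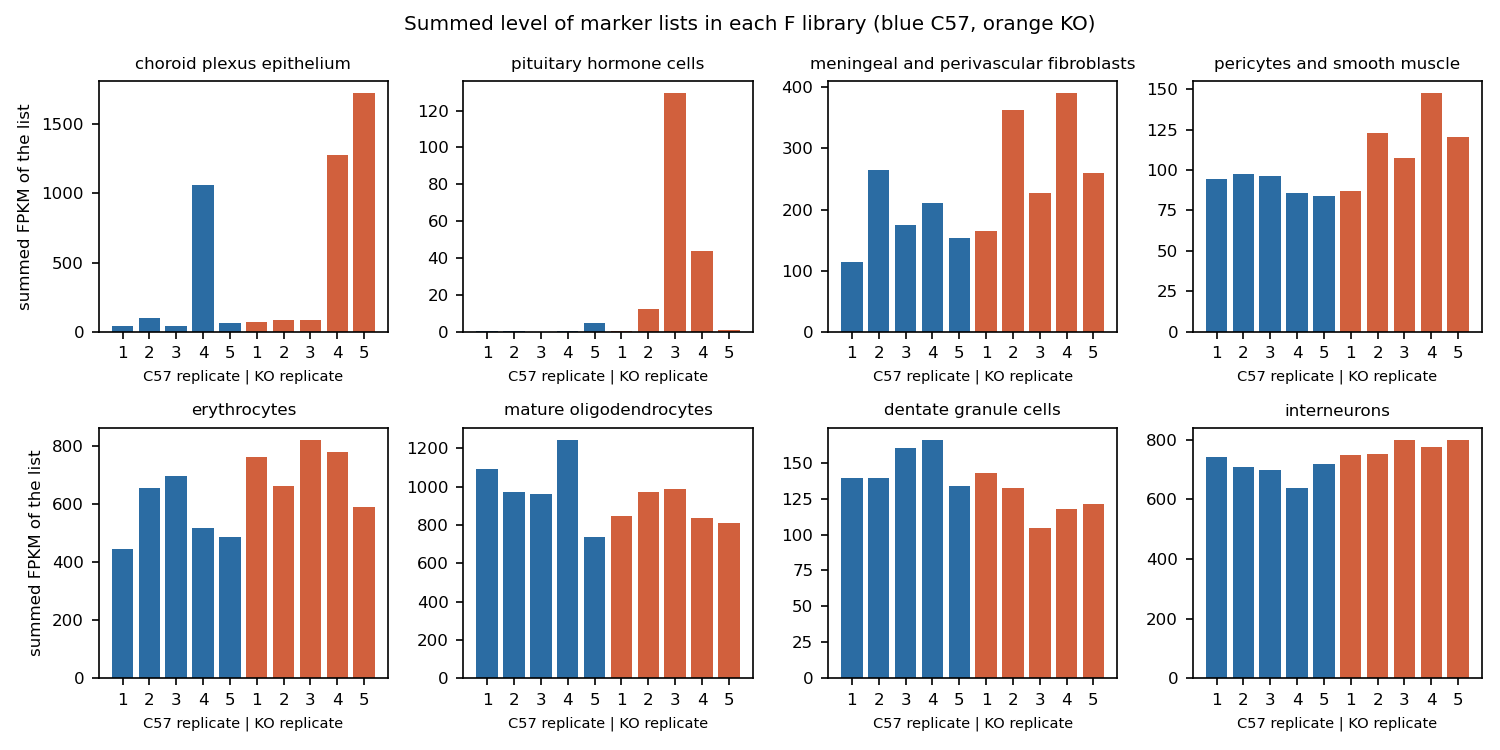
Summed FPKM of 8 marker lists in each F library, C57 replicates 1 to 5 in blue and KO replicates 1 to 5 in orange, each panel on its own scale from 0. Choroid plexus markers stood out in C57 replicate 4 and KO replicates 4 and 5 (1057, 1276 and 1722 FPKM) and pituitary markers in KO replicates 2, 3 and 4 (12.4, 129 and 43.9 FPKM), while dentate granule cell and interneuron lists varied less.

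The F comparison was last set beside the same comparison in the M libraries, through the test of the difference between both KO effects. Of 13174 genes 6 passed, 0 higher and 6 lower in the M minus F difference, and 1320 had an unadjusted p under 0.05 (limma). Beside Foxo6 they were Fbxl14, Emc1 and the muscle genes Ckm, Atp2a1 and Myh4, all named after their values were seen. Fbxl14, a ubiquitin ligase receptor, averaged 8.49 and 9.75 FPKM in F C57 and F KO and 9.24 and 8.37 in M C57 and M KO (adjusted p = 0.0436). Emc1, of the membrane protein insertase of the endoplasmic reticulum, averaged 10.4 and 11.8 FPKM in F and 11.3 and 10.7 in M (adjusted p = 0.0493). Fbxl14 passed without 1 of the 20 single libraries and Emc1 without 2. Neither passed with upper-quartile rescaling (limma adjusted p = 0.0659 for Fbxl14 and 0.154 for Emc1) or with the replicate block (0.339 and 0.211). Ckm, Atp2a1 and Myh4 averaged 0.694, 0.921 and 0.875 FPKM in M C57 and at most 0.0901 in each of the other 3 groups. They entered the test through M C57 alone, the group in which they are high, so their 3 calls are a description of that group. Of the 120 genes of the F comparison, 101 had the same sign in M. The share over all tested genes was not computed, so this count is no measure of agreement between F and M. The test of the difference uses the F values that chose these genes. It gave 76 of the 120 an unadjusted p under 0.05 (limma), and 1 passed adjustment. A call in F that is missing in M is therefore not shown to differ, other than for Foxo6, whose difference lost its call in the settings given above.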

How the data were processed

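RNA sequencing of hippocampus from the 5 F KO and 5 F C57 libraries was compared, with the 10 M libraries used only where stated. Per the file headers, the values the authors deposited are FPKM of each gene, with a table for each library. FastQC, HISAT2, StringTie and the build mm10 are named per the submitters' processing notes; versions, annotation release and strand setting were not stated there. Low FPKM values show no steps of whole reads, so depth is unknown and no counting interval was computed.

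Groups and replicate numbers came from the titles. log2(FPKM + 1) of genes with at least 0.5 FPKM in at least 5 of the 10 libraries was fitted with limma 3.58.1 (trend, R 4.3.3). Calls were at an adjusted p (Benjamini-Hochberg) under 0.05 over all 12970 genes. The M minus F test and the KO against C57 calls in M used a fit of all 20 libraries. It covered the 13174 genes with at least 0.5 FPKM in at least 5 of them. The script was tested on simulated data. Fmr1 was tested by exact permutation (scipy 1.17.1). GC content and overlaps are from GENCODE M21 (mm10), and GC trends were removed by loess (span 0.5). Alternatives were upper-quartile rescaling, a pseudocount of 0.1, no filter or 2 FPKM, a fit of all 20 libraries, robust empirical Bayes, library weights, the replicate block, GC removal and leaving out libraries; the settings without the Prl and Ttr libraries were added after the data were seen.

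The members and gene lists were chosen with earlier results of these data known. Genes named are Fmr1, the 15 largest increases and decreases among those that passed with a mean of at least 1 FPKM in a group, up to 8 list members that passed (else the 2 smallest p), Ttr, Prl and the first neighbouring pair of called genes within 500 kb. Other names are marked, and 2 genes that this rule names are not reported here. Promoter windows are RefSeq sequences of GRCm38.p6, which cover 10038 of the tested genes.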

Additional observations from a re-analysis of the deposited data

Results flagged for a closer look

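The KO effect on Foxo6 differed between M and F libraries by -0.66 on the log2 scale by the test of the difference. This call was lost with a 2 FPKM filter (adjusted p = 0.0659, limma) and without 10 of the 20 single libraries. In each group of 5 F libraries of each named gene, a library was looked for that stood far from the other 4; 22 of 202 groups had one, where chance gives about 1 in 20. Among genes that passed were Rabac1 in KO replicate 3 (41.1 FPKM), Zfp451 in C57 replicate 2 (1.48), Camkk1 in C57 replicate 3 (22.2), Arhgap5 in KO replicate 2 (17.0) and Pdia4 in KO replicate 4 (21.9). For mt-Atp8 it was KO replicate 5 (4172), for Neurod6 C57 replicate 4 (150.5) and for Rpp25l KO replicate 3 (11.6). C57 replicate 4 stood apart for Cort (5.01), Fezf2 (12.4), Lbp (2.41) and Ttr (878).

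KO replicate 1 stood apart for Timp3 (15.1) and Opalin (10.4), and C57 replicate 1 for Myo6 (7.14). KO replicate 4 stood apart for Drd1 (1.57) and Rarres2 (2.51), and KO replicate 5 for Pdgfra (5.99). The pituitary genes stood apart in KO replicate 3, with Pomc at 17.2 FPKM and Gh at 69.9, and in C57 replicate 5, with Prl at 1.68 and Gh at 2.24.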

How the results depend on the processing

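The fall of Fmr1 kept its direction throughout. It was -1.44 with upper-quartile rescaling, -1.65 with a pseudocount of 0.1 and -1.38 after GC removal, and between -1.46 and -1.40 without single libraries. Its exact p rose to 0.0952 without the 3 Prl libraries (-1.37) and to 0.0571 without the 3 Ttr libraries (-1.40), the smallest these smaller designs allow. Same-numbered KO and C57 libraries correlated at 0.0466, -0.0316, 0.0167, 0.0114 and -0.0156 in their deviations. For KO replicates 1 to 5 the highest correlation with another number was 0.0365, 0.102, 0.0548, 0.0379 and 0.179. The same-numbered value was the highest for replicate 1 and not for replicates 2 to 5. Weak correlations cannot exclude that replicate numbers pair the samples. With the replicate block 4 genes passed (also together with GC removal, 4), the sign-flip p of Fmr1 was 0.0625 (difference -1.43), the smallest 5 pairs allow, and the M minus F test had 2 calls.

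The count of 120 genes moved. It was 224 with a 2 FPKM filter, 440 in the 20-library fit, which shared 100 of the 120, 190 with robust empirical Bayes and 27 after GC removal. Without single libraries it ranged from 7 to 127, and moved by over 1.5 times without C57 replicates 1 (78), 2 (66), 3 (14), 4 (18) or 5 (16) and KO replicates 2 (9), 3 (7), 4 (64) or 5 (18). It was 8 without the Prl and 44 without the Ttr libraries, where 7 libraries remain. The cause of these moves was not tested. The M minus F count of 6 ranged from 3 to 7 without single libraries, and was 0 with a 2 FPKM filter, where 1104 genes had an unadjusted p under 0.05, the muscle genes are not tested and Foxo6 did not pass (adjusted p = 0.0659).

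Over 2162 alternatives for 99 named genes 1582 kept direction and side of the threshold, 532 no longer passed, 48 newly passed and 0 reversed. Only the 48 genes called in the main fit can lose a call, so all 532 losses are theirs. The 1582 also hold uncalled genes that stayed uncalled, and are therefore no measure of how well calls held. List medians changed sign in 51 of 835 alternatives, in 15 lists whose median was at most 0.077 from 0; some lists had no member left at 2 FPKM. Unknown depth limits statements on genes near 0.5 FPKM.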

Other observations

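Within 500 kb there were 5 pairs of called genes with the same direction, all higher in KO and none longer than 2 genes. How many such pairs other sets of tested genes of this size hold was not tested. The first pair, on chromosome 11, holds Dcakd, a kinase-like gene, and Hexim1, which restrains the elongation factor P-TEFb.
Hexim1 was at 17.1, 17.5, 15.9, 15.4 and 15.6 FPKM in C57 replicates 1 to 5 and 22.3, 21.1, 20.1, 18.6 and 19.9 in KO (log2 difference 0.31 ± 0.05 (SE), adjusted p = 0.0435). Dcakd was at 14.5, 13.6, 14.3, 12.9 and 12.7 FPKM in C57 and 17.1, 16.5, 16.8, 16.1 and 16.7 in KO (log2 difference 0.28 ± 0.04 (SE), adjusted p = 0.0278). The groups did not overlap in either gene, and Dcakd overlaps Nmt1 on the opposite strand.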
